A study of Mus musculus with 15 samples.

Results

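The clustered protocadherin locus was taken as the interval of mouse chromosome 18 from 36900001 to 38100000 (build mm9), 1.2 Mb long, and was read in hepatocyte chromatin maps made by srHC-seq. In this assay fixed chromatin is broken by sonication and the DNA is sorted by fragment length, so that sonication-resistant, closed chromatin can be told from open chromatin. The interval was chosen by position, with 1 Mb on either side as flanks, and holds 600 of the 1362867 bins of 2 kb in each genome map. Each bin carries 1 of 3 deposited classes, het (closed), int (intermediate) or euch (open). There were 15 mice in 3 groups of 5. The first group was wild type (Wt) at postnatal day 14 (P14), with 3 males and 2 females. The second was Alb-Cre;Ezh1-/-;Ezh2f/f at P14, with 2 males and 3 females, and is called knockout here. In this genotype Ezh1 is lost in the whole animal, and Ezh2 is removed where Cre is made from the albumin promoter, which is active in hepatocytes. The third was wild type at 2 months of age, with 2 males and 3 females. All groups are fixed hepatocytes from perfused livers. Expression was not analysed here, so the cell type was not checked against markers. The labels do not say whether the wild-type mice carried Cre or floxed alleles. Each group is represented by 1 pooled map without read counts, so the depth is unknown, no animal can be set against another, and no difference below has a replicate check or a p-value.

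Clustered protocadherins are cell-surface adhesion proteins of the cadherin family, best known from neurons, where each cell makes its own small choice of isoforms from a tandem array of promoters and so acquires an identity that lets its branches recognise each other. In the alpha and gamma clusters a variable first exon is spliced to constant exons shared by the whole cluster, while each beta gene is a single exon. Outside the nervous system most of these promoters are silent, and EZH1 and EZH2 are the catalytic subunits of PRC2, which places the repressive methyl mark on lysine 27 of histone H3. In the RefSeq table of the later mouse assembly GRCm38, the order along chromosome 18 was 14 alpha genes from Pcdha1 to Pcdhac2, 22 beta genes from Pcdhb1 to Pcdhb22, and 22 gamma genes from Pcdhga1 to Pcdhgc5, of which 21 were listed as protein coding. Zmat2 was the last protein-coding gene before the alpha cluster. Slc25a2, a mitochondrial carrier gene, and Taf7, a subunit gene of the general transcription factor TFIID, lay between the beta and gamma clusters, and Diaph1, an actin-nucleating formin gene, and Hdac3, a histone deacetylase gene, came next after the gamma cluster. That table is of another build than the maps, so no gene was placed on them, and regions are given by mm9 position.

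In all 3 maps the locus was a mostly closed block between mostly open flanks. The het class covered 71.5% of it (858 kb) in P14 wild-type, 70.2% (842 kb) in P14 knockout and 72.5% (870 kb) in 2-month wild-type hepatocytes. The euch class covered 22.3% (268 kb), 24.8% (298 kb) and 24.0% (288 kb), while int bases made up 6.17%, 5.00% and 3.50%. On the left flank the het share was 34.8% in P14 wild-type, 27.4% in knockout and 27.8% in 2-month hepatocytes. On the right flank it was 20.8%, 17.8% and 17.4%. Over all autosomes it was 45.4%, 46.0% and 46.2%, so the locus held more het than the autosomes and its flanks held less. The flanks had closed domains of their own. In P14 wild-type, knockout and 2-month hepatocytes the longest was 154, 130 and 148 kb on the left, and 126, 84 and 74 kb on the right.

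**Figure D1:**
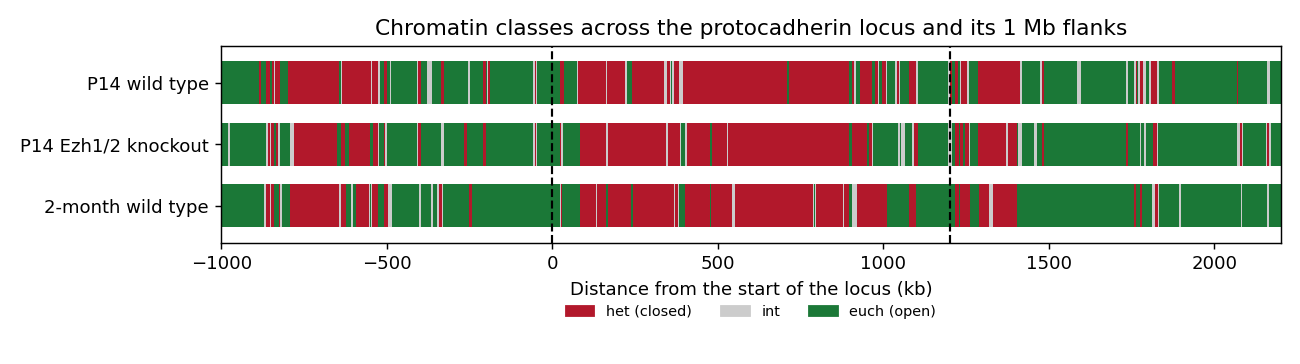
Deposited class of each stretch of chromosome 18 (colour) in the 3 pooled maps (rows), against distance from the start of the locus in kb, with dashed lines at both ends of the locus. Het (red) fills most of the span between the lines, 70.2% to 72.5% of it by map, and euch (green) prevails in both flanks, with 59.4% to 78.6% of their bases.

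**Figure D2:**
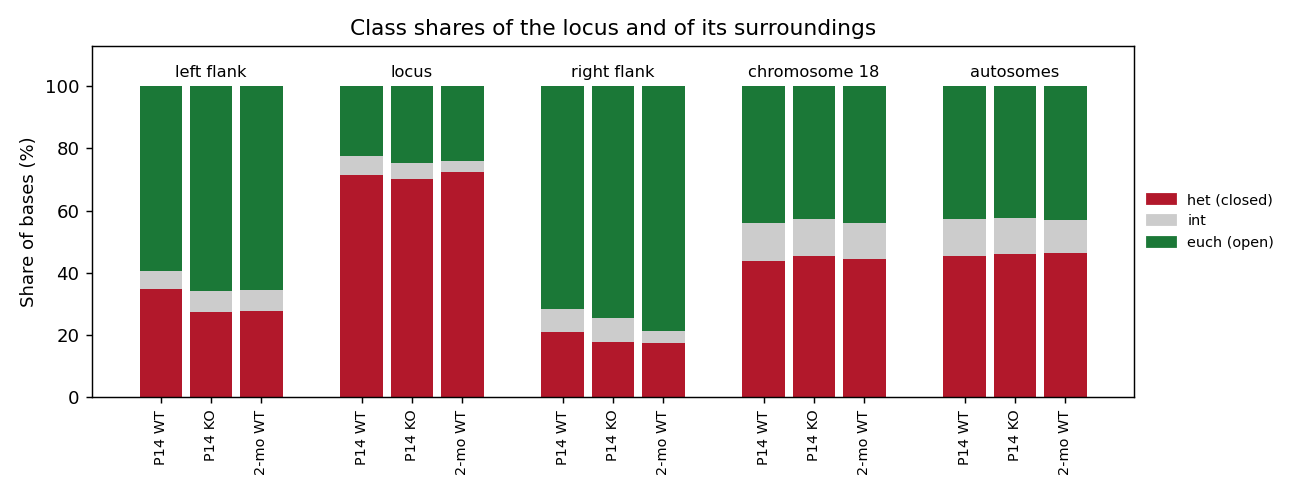
Share of bases (%) in each class, stacked from 0 to 100, for the locus, its 1 Mb flanks, chromosome 18 and all autosomes, with 1 bar for each pooled map and no error bars because each group has 1 map. The locus bars are red over 70.2% to 72.5% of their height, and those of all autosomes over 45.4% to 46.2%.

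An openness score was taken for any region by subtracting its het share from its euch share, so that a wholly closed region scores -1 and a wholly open one 1. The locus scored -0.49 in P14 wild-type, -0.45 in knockout and -0.485 in 2-month hepatocytes. The mean score of its 2 flanks was 0.38, 0.48 and 0.495, and the locus minus its flanks gave -0.87, -0.93 and -0.98. When autosomes were cut into windows of 1.2 Mb with flanks of the same kind, 26 of 2018 windows lay further below their flanks in P14 wild-type, 27 in knockout and 34 in 2-month hepatocytes. Its own score was less extreme, with 259, 405 and 464 of 2052 autosomal windows of that length scoring lower. The limits of the locus were set around a known gene array and the other windows lie on a fixed grid, which favours a sharp contrast for the locus. These ranks describe 1 genome and are not tests.

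The closed part began at the same place in knockout and 2-month hepatocytes and 6 kb further left in P14 wild-type hepatocytes. On its left, bases 36934001 to 36974000 were euch in all 3 maps. Het then began at 36976001 in P14 wild-type and at 36982001 in knockout and 2-month hepatocytes. A small het stretch that broke the open left margin, from 36922001, was 12 kb long in P14 wild-type and 4 kb in knockout hepatocytes. At 2 months 4 kb of het lay there too, from 36926001. On the right, bases 38006001 to 38096000 were euch in all 3 maps, and the open domain that holds them was 90 kb long in P14 wild-type, 92 kb in knockout and 116 kb in 2-month hepatocytes, where it ran on past the end of the locus.

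Of the 1200 kb, 934 kb (77.8%) had the same class in all 3 maps, against 65.0% of autosomal bases. That constant part was made of 730 kb of het, 204 kb of euch and no int. Constant het lay in 17 stretches, of which 10 were at least 20 kb long and together covered 670 kb. The longest was 158 kb, from 37452001 to 37610000. Next came 92 kb from 37144001 to 37236000, 82 kb from 37696001 to 37778000, 70 kb from 37306001 to 37376000 and 70 kb from 37616001 to 37686000. The other 5 of at least 20 kb were between 24 and 50 kb long. Constant euch of at least 20 kb was found in 4 stretches, all within the outer parts of the locus: 22 kb from 36900001, 40 kb from 36934001, 26 kb from 37910001 and 90 kb from 38006001. The long constant closed stretches thus filled the middle of the locus, and the constant open ones sat towards its ends.

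Some single het domains in the locus were long. In P14 wild-type hepatocytes the 3 longest were 314 kb (37296001 to 37610000), 180 kb (37616001 to 37796000) and 96 kb (37140001 to 37236000), and 180 of 41439 autosomal het domains were at least as long as the first. In the knockout they were 364 kb (37432001 to 37796000), 174 kb (37068001 to 37242000) and 80 kb (36982001 to 37062000), with 165 of 38014 at least as long as the first. At 2 months they were 234 kb (37452001 to 37686000), 124 kb (37144001 to 37268000) and 90 kb (37820001 to 37910000), with 609 of 28510 at least as long as the first. Each first domain was picked as the longest of its map in the locus, so these ranks are not tests. The 2-month map had the shortest of the 3 leading het domains. By median length, however, its het domains were the longest in the locus, as on autosomes. The median in the locus was 19 kb in P14 wild-type, 46 kb in knockout and 64 kb in 2-month hepatocytes. On autosomes it was 14 kb, 16 kb and 18 kb. The longest euch domains that touched the locus were 90, 68 and 40 kb in P14 wild-type, 92, 74 and 68 kb in knockout, and 266, 116 and 66 kb in 2-month hepatocytes. The 266 kb domain came from the left flank, from 36656001 to 36922000. In all, 41 domains touched the locus in P14 wild-type, 31 in knockout and 32 in 2-month hepatocytes.

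At the exact 2 kb step most edges between domains had no partner in another map. Of the 40 edges within the locus in P14 wild-type, 7 (17.5%) were at the same 2 kb step in the knockout and 7 at 2 months, against 22.2% and 15.2% of P14 wild-type edges on all autosomes. Of the 30 knockout edges, 9 (30.0%) had a partner at 2 months at the same step, against 18% on autosomes. With a tolerance of 4 kb, 40.0% of P14 wild-type edges had a partner in the knockout (autosomes 59.4%) and 37.5% at 2 months (autosomes 44%). Read the other way, 60.0% of knockout edges (autosomes 64.2%) and 58.1% of the 31 edges at 2 months (autosomes 60.6%) had a P14 wild-type edge within 4 kb. From knockout to 2 months the share was 36.7% within 2 kb (autosomes 38%) and 43.3% within 4 kb (autosomes 49.9%), so the higher share at the exact step did not hold at either tolerance. An edge was at the same step in all 3 maps at 4 places, after bases 36922000, 37062000, 37796000 and 37806000. That is 10.0% of P14 wild-type edges in the locus, against 5.64% on autosomes. The higher share did not hold within 2 kb (12.5%, autosomes 19.5%) or 4 kb (22.5%, autosomes 31.5%). Only after 37796000 were the classes on both sides the same in all 3 maps. The edges after 37796000 and 37806000 enclose an open island of 10 kb (37796001 to 37806000), whose ends had the same positions in all 3 maps. Het bordered it on both sides in the P14 maps, while at 2 months het lay on its left and an int domain of 14 kb (37806001 to 37820000) on its right. Such a domain was rare, since 149 of 40522 autosomal euch domains of the P14 wild type (0.368%) had both ends at the same steps in the 3 maps, with a median length of 10 kb. It was 1 of 12 euch domains of P14 wild type that touched the locus, and 0 of 14 het and 0 of 15 int domains there matched in this way. The island was picked out because its ends matched, so the autosomal share is not a test of it.

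By windows of 50 kb, the score of the 24 windows of the locus had a median of -0.82 in P14 wild-type, -0.88 in knockout and -0.82 in 2-month hepatocytes, against -0.04 over 49434 autosomal windows in each map. Of the 24, 17 (70.8%) scored below 0 in all 3 maps, against 39.3% of autosomal windows, and 5 (20.8%) scored above 0 in all 3, against 35.3%. Fully het windows numbered 10 in P14 wild-type (41.7%, autosomes 11.9%), 9 in knockout (37.5%, autosomes 14.1%) and 8 in 2-month hepatocytes (33.3%, autosomes 18.7%). The lowest scores were thus ties at -1. Fully het in all 3 maps were 4 windows (16.7%, autosomes 6.77%), those that start at 37150001, 37500001, 37550001 and 37700001. The 3 highest scores were at the ends in P14 wild type, 0.92 in the window from 38050001, 0.88 from 38000001 and 0.52 from 36900001. In the knockout they were 0.92 from 38050001, 0.88 from 37900001 and 0.84 from 38000001. At 2 months they were 1 from 38050001, 1 from 38000001 and 0.76 from 36900001. In the 2 P14 maps no window of the locus was fully euch (autosomes 12.1% in wild type and 13.9% in knockout). At 2 months 2 of the 24 were (autosomes 20.1%).

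**Figure D3:**
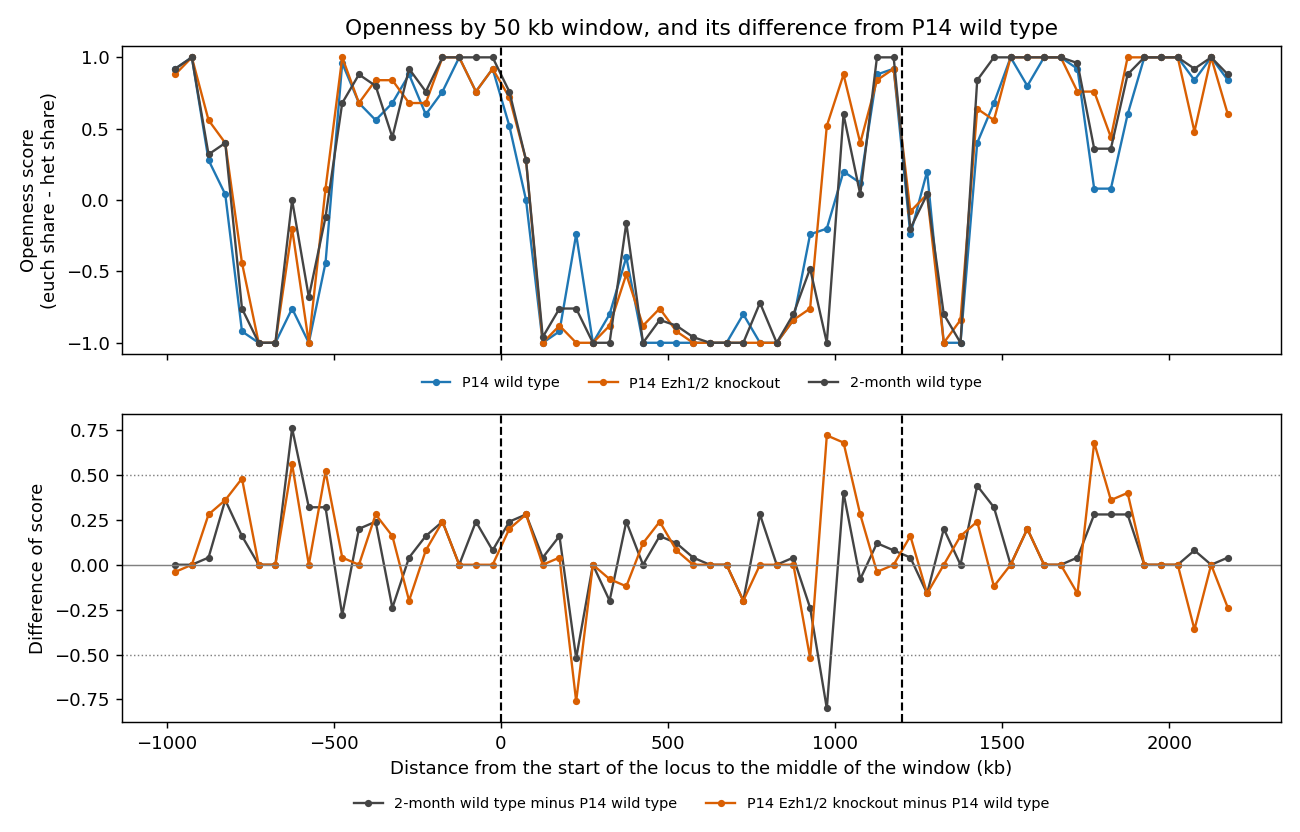
Openness score of each 50 kb window (top; points are windows, lines are the 3 pooled maps) and its difference from P14 wild type (bottom; dotted lines at -0.5 and 0.5), against distance of the window's middle from the start of the locus in kb. Between the dashed lines that bound the locus, 17 of 24 windows score below 0 in all maps, and the medians by map lie from -0.88 to -0.82. The window centred at 975 kb is 0.72 above P14 wild type in the knockout and 0.8 below it at 2 months. The widest fall in the knockout, 0.76, is in the window centred at 225 kb.

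The comparison of both ages of wild type asks how the locus changed as hepatocytes matured. The long closed middle was present at both ages, and short stretches within it and at its ends changed class in both directions. Of the bins of the locus, 95 of 600 (15.8%, 190 kb) had another class at 2 months, against 27.4% of autosomal bins. Towards euch went 53 bins (8.83%, background 13.6%) and towards het 42 bins (7.00%, background 13.7%), a net of 1.83 percentage points towards euch. That net was not stable in direction: it was -1.28 points among bins het or euch in both maps, -0.4 with 100 kb trimmed at both ends and 0 with the interval moved by 100 kb to the right. Of 429 het bins, 35 (8.16%) were no longer het, against 22.3% of autosomal het bins. On autosomes, too, few bins of long het domains changed: within het domains of at least 200 kb the share was 5.10% (8 of 157 bins) in the locus and 4.1% on autosomes. The lower figure for the locus as a whole was therefore not seen within its 314 kb domain. Of 134 euch bins, 26 (19.4%) were no longer euch, against 22.7%.

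Among the 24 windows of 50 kb, 13 had a higher score at 2 months, 6 a lower one and 5 the same, with a median change of 0.04 against 0 on autosomes. A fall of more than 0.5 was found in 2 windows (8.33%, background 13.9%), and a rise of that size in 0 (background 12.5%). The window from 37100001 to 37150000 scored -0.24 at P14 and -0.76 at 2 months. The window from 37850001 to 37900000 scored -0.2 at P14, with 56% het and 36% euch, and -1 at 2 months, with 100% het. On a grid moved by 25 kb there were 0 such falls and 1 rise. Without bins within 4 kb of a P14 wild-type edge 5.11% of bins had another class. No autosomal share was taken without such bins, so this value cannot be set against the background above. Stretches from het to euch numbered 8 and were at most 8 kb long, 36 kb in all. Stretches from euch to het numbered 7, 50 kb in all, and 2 reached 10 kb, one of 14 kb (37124001 to 37138000) and one of 10 kb (37866001 to 37876000). The first of these was fully het in the knockout too, while 60% of the second was euch there.

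The comparison of knockout with wild-type hepatocytes of P14 asks what loss of Ezh1 and Ezh2 changed at a fixed age. It uses the same P14 wild-type map as the comparison above, so the errors of that map enter both. Another class was found in 95 of 600 bins (15.8%, 190 kb), against 24.6% of autosomal bins. Towards euch went 53 bins (8.83%, background 12.1%) and towards het 42 (7.00%, background 12.5%). These counts equal those with age, and 57 of the 95 bins were the same ones in both comparisons, which share the P14 wild-type map. In such bins only the P14 wild type differed (7.17% of the locus, autosomes 11.8%) or the maps held 3 different classes (2.33%, autosomes 5.21%). Both shares were below the autosomal ones, as was the share of bins with another class in either comparison. They therefore do not show whether the overlap is particular to the locus. In the knockout 43 of 429 het bins (10.0%, background 19.4%) were no longer het, and 24 of 134 euch bins (17.9%, background 20.1%) were no longer euch. In het domains of at least 200 kb the share was 6.37% (10 of 157 bins), against 3.66% on autosomes.

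In the knockout, 2 neighbouring windows at the right-hand end were more open by over 0.5 in score, and 2 other windows were more closed by over 0.5. Of the 24 windows, 9 scored higher, 6 lower and 9 the same, with a median change of 0 as on autosomes. The 2 rises made up 8.33% of the windows (background 7.18%). The window from 37850001 to 37900000 went from -0.2 in the wild type to 0.52 with loss of both genes, with het at 56% and 20% and euch at 36% and 72%. The window from 37900001 to 37950000 scored 0.2 and 0.88, with het at 32% and 0%. The 2 falls made up 8.33% as well (background 8.53%). The window from 37100001 to 37150000 went from -0.24 to -1, and the window from 37800001 to 37850000 scored -0.24 and -0.76. These shares are close to the autosomal ones, so the number of changed windows in the locus is not a result about it. On a grid moved by 25 kb there was 1 rise and 1 fall. Without bins within 4 kb of a P14 wild-type edge 7.02% of bins had another class, again with no autosomal share taken in that way.

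Stretches of at least 10 kb that went from het to euch in the knockout were 12 kb from 37896001 to 37908000 and 10 kb from 37978001 to 37988000. At 2 months both were fully het. From euch to het went 16 kb from 37124001 to 37140000, an open island of the P14 wild type of which 87.5% was also het at 2 months, and 10 kb from 37818001 to 37828000, with 80% het at 2 months. The island of 16 kb was thus open in the P14 wild type, absent in the knockout and mostly het at 2 months. The 12.5% of it that was euch at 2 months belonged to a 6 kb euch domain, from 37138001 to 37144000, that ran past its end. The island lies in the window from 37100001 whose score was lower in both. On autosomes 22442 stretches turned from euch to het in the same comparison, and 887 (3.95%) of them were at least 16 kb long. The stretch of 16 kb was the longest of its kind in the locus, so this share is not a test of it.

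For a description by section, the locus was divided at the outermost constant het stretches of at least 20 kb, a division made after the maps had been seen. By construction the margins begin where the maps stop agreeing on het, so the values by section are in part set by the division and are given as a description. The left margin is 82 kb long (36900001 to 36982000), the middle 870 kb (36982001 to 37852000) and the right margin 248 kb (37852001 to 38100000). The left margin was 22.0% het in P14 wild-type and 4.88% het in both knockout and 2-month hepatocytes. The middle was 89.2%, 94.0% and 90.1% het in P14 wild-type, knockout and 2-month hepatocytes. The right margin was 25.8%, 8.06% and 33.1% het in that order. Set against the 64 kb of het in P14 wild type, the right margin held 20 kb in the knockout and 82 kb at 2 months. In the knockout the score of the middle moved by -0.07, that of the left margin by 0.29 and that of the right margin by 0.33. With age the moves were -0.0046, 0.32 and -0.06.

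Open islands in the middle section were few. Each island of the knockout overlapped one at 2 months, while most P14 wild-type islands held no euch base in the other maps. There were 5 in P14 wild-type, from 4 to 16 kb long and 44 kb in all, 3 in knockout, from 6 to 10 kb and 26 kb in all, and 6 in 2-month hepatocytes, from 4 to 18 kb and 48 kb in all. The island of 10 kb from 37796001 was shared by all. An island from 37290001 to 37300000 in the knockout lay within an island of 18 kb from 37282001 to 37300000 at 2 months, and no base of either was euch in the P14 wild type. Near 37376001 an island was 6 kb long in the knockout and 4 kb at 2 months, again without a euch base in the P14 wild type. At 2 months 3 other islands lay at 37062001, 37138001 and 37690001, each 4 or 6 kb long, and none of their bases was euch in the knockout. The one at 37138001 overlapped the end of the 16 kb island of the P14 wild type, where 33.3% of it was euch. No base of the other 2 was euch in that map.

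**Figure D4:**
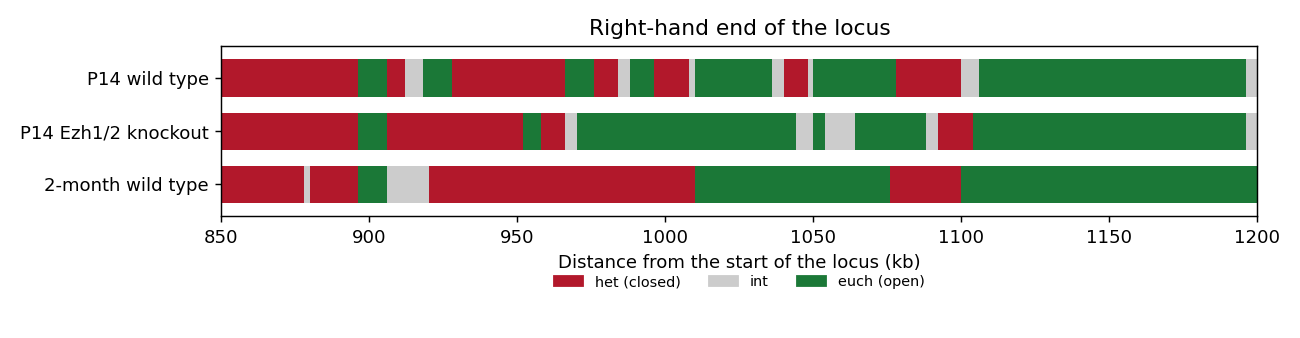
Deposited class (colour) of the last 350 kb of the locus in the 3 pooled maps (rows), against distance from the start of the locus in kb. From 970 to 1010 kb the knockout is euch and the 2-month map is het throughout, while the P14 wild type alternates between the classes, with 50% het and 35% euch.

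The knockout and the 2-month maps differ in both genotype and age, and this comparison shares a map with each of those above. Within the locus 90 of 600 bins (15.0%, 180 kb) had another class at 2 months than in the knockout, against 23.2% of autosomal bins. Towards euch went 46 bins (7.67%, background 11.7%) and towards het 44 (7.33%, background 11.5%), a net of 0.333 points whose sign turned under 4 other settings, to -3.83 among bins het or euch in both maps. Of 421 knockout het bins 30 (7.13%, background 18.4%) were no longer het at 2 months, and of 149 knockout euch bins 30 (20.1%, background 18%) were no longer euch. Within het domains of at least 200 kb the shares were 5.49% (10 of 182 bins) in the locus and 2.92% on autosomes. One window scored lower by more than 0.5 (4.17% of 24, background 8.77%), and 0 scored higher by that much (background 8.72%).

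That window, from 37850001 to 37900000, scored 0.52 in the knockout and -1 at 2 months, a difference of -1.52. Of 49434 autosomal windows 48 (0.0971%) differed by as much in that direction. Bases 37870001 to 37910000, a stretch of 40 kb, were euch in the knockout and het at 2 months throughout. Of 18752 autosomal stretches of that kind 17 were at least 40 kb long, and the median of all was 6 kb. The stretch of 40 kb was the longest of its kind in the locus, so this count is not a test of it. The euch domain of the knockout that holds the stretch ran for 74 kb, from 37870001 to 37944000, and the euch share of those bases was 54.1% in the P14 wild type and 45.9% at 2 months. The het domain of the 2-month map that holds it ran for 90 kb, from 37820001 to 37910000, where het made up 64.4% in the P14 wild type and 44.4% in the knockout. In the P14 wild type the same 40 kb were 50% het, 35% euch and 15% int. The stretch was chosen by its full euch and full het in the other 2 maps, so this map could only lie between them. A second stretch, of 12 kb from 37976001 to 37988000, was also euch in the knockout and het at 2 months, and 83.3% of it was het in the P14 wild type. The window from 37850001 was picked out because its difference was the widest of the 24. The knockout and 2-month pools each held 2 males and 3 females, and the P14 wild-type pool held 3 males and 2 females. The share of each mouse in its pool is unknown, and an effect of sex was not tested. On a grid moved by 25 kb, 2 windows rather than 1 scored lower by more than 0.5.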

How the data were processed

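The data are 9 deposited lists of genome intervals from srHC-seq of hepatocytes, 1 per group and class (het, int, euch). The sample descriptions give each list under every mouse of its group (but not euch under 1 female aged 2 months), so it was read as a pool. Per the submitters' processing notes, the authors used bcl2fastq 2.19.0.316, STAR 2.4.2a and bedtools with build mm9. The domain caller and its thresholds are not given in the sources used here, nor is the scaling of the calls within a map. The intervals hold a class letter and no signal.

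Lists were read into whole bins of 2 kb with Python 3.11.15 and NumPy 2.4.6, and plots were drawn with Matplotlib 3.10.9. No bin lay in 2 classes of a map and no bin of the locus was without a class. Coordinates are 1-based. The code was tested on simulated data, in which 200 of 49434 windows, all mostly het, were set wholly to euch and 100% were recovered. Changes that large must pass the threshold of 0.5, so this checks the code and not how well smaller changes are found. The locus, the lists of quantities and the thresholds were chosen with earlier results of these data known. Regions named were windows that changed by more than 0.5, the 3 highest and 3 lowest windows, the 3 longest het and euch domains of each map, stretches of at least 10 kb that turned from het to euch or back, constant stretches of at least 20 kb and both borders. The open islands, the sections and the single edges named were chosen after their values were seen. Background shares are over autosomes and include int runs to which reads may not map. No sequence of the locus is shown. Alternatives changed the window, its grid, thresholds, flanks, edges and small domains.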

Additional observations from a re-analysis of the deposited data

How the results depend on the processing

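No paired analysis was possible because each list pools its 5 mice, which also means that no mouse could be left out. Of 201 values of 36 quantities under other settings, 123 were sorted as the same, 72 moved further and 6 turned in sign. The same meant within a 95% interval of the main value over its bins or windows, and for counts within 1.5 times. The interval was binomial for shares and normal for nets and for the locus minus its flanks. A net of 0 was not taken as a turn in sign. Neighbouring bins share domains and are not independent, so these intervals only sort the values by size and show no stability. The causes were not tested, beyond what the alternatives remove by construction.

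The het share (P14 wild type, knockout, 2 months) was 82.2%, 81.6% and 84.8% with 100 kb trimmed at both ends, 64.7%, 63.6% and 66.0% with 100 kb added, and 79.6%, 76.4% and 78.1% without bins within 4 kb of a P14 wild-type edge. Without bins within 2 kb it was 76.5% in P14 wild type. Without bins within 2 kb, the share with another class was 9.35% with age, 10.3% in the knockout and 11.1% from knockout to 2 months, and without bins within 4 kb it was 5.11%, 7.02% and 7.87%. Among bins that were het or euch in both maps it was 7.89%, 8.49% and 7.10%. With domains under 5 kb merged it was 11.8% with age. These shares were taken for the locus only and have no autosomal share beside them. The net with age, 1.83 points towards euch, turned to -0.4 trimmed and -1.28 among bins het or euch in both maps. From knockout to 2 months the net of 0.333 turned to -0.667 with domains under 5 kb merged, -0.6 trimmed and -3.83 among bins het or euch in both maps. It also turned, to -0.213, without bins within 4 kb of a P14 wild-type edge. Those bins were set by edges of the P14 wild type, not of the 2 maps compared.

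Counts of windows beyond the threshold are small and moved. With age, rises numbered 1 at a threshold of 0.3, 4 in windows of 25 kb and 1 on a grid moved by 25 kb, and falls 1 at 0.7, 4 in 25 kb, 1 in 100 kb and 0 on the moved grid. In the knockout, rises numbered 1 at 0.7, 5 in 25 kb, 0 in 100 kb and 1 on the moved grid, and falls 1 at 0.7, 0 in 100 kb and 1 on the moved grid. From knockout to 2 months, rises numbered 1 at 0.3 and 3 in 25 kb, and falls 2 at 0.3, 4 in 25 kb and 2 on the moved grid.

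The locus minus its flanks (P14 wild type, knockout, 2 months) was -1.02, -1.04 and -1.10 with flanks of 0.5 Mb, -1.04, -1.09 and -1.20 with flanks of 2 Mb, -1.05, -1.14 and -1.21 trimmed, and -0.76, -0.83 and -0.88 widened. With domains under 5 kb merged, domains numbered 27 in P14 wild type and 16 at 2 months, and the longest het domain of P14 wild type was 500.0 kb. Of P14 wild-type edges, 12 had a knockout edge within 2 kb and 16 within 4 kb, and 13 and 15 had a 2-month edge.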
